A study of Saccharomyces cerevisiae YPS1009 with 8 samples.

Results

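The windows on either side of the stop codon were examined in ribosome profiling data from the haploid yeast strain YPS1009 and a derivative that carries an extra copy of chromosome XII. In the deposited tables each gene is a row of read counts by nucleotide that ends about 60 nt after the stop codon. The last 60 position columns of a row were taken as the post-stop window, which covers the beginning of the 3' UTR, and the 60 columns before them as the coding-end window. A row entered if its reads summed over the 8 libraries reached 100, which kept 5299 of 6536 rows and 99.8% of all reads. Since the rule used row totals, these are given only as a description: the median row held 856 reads, the richest 252795, 5 rows sat at the minimum of 100 and 8 rows just below it at 99. Reads were placed by their 5' end, so that a ribosome sits further downstream than its window, with the P site 12 nt into the read.

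Libraries came in duplicate from 4 groups: the Chr12 strain at day 4 of culture, the euploid strain at day 4, the Chr12 strain in log phase and the euploid strain in log phase. Both strains were MATa ho-Δ1 haploids grown in rich medium (YPD) at 30 °C from an OD600 of 0.05, log phase samples were taken after 3 generations, and the replicates were biological duplicates. The Chr12 strain was also his3-Δ, with His3MX6 on 1 copy of chromosome XII and NatMX on the other, and the euploid strain (AGY1611) carried NatMX in an intergenic region of chromosome XII. Each strain is an engineered derivative of 1 wild isolate, so the strain comparison sets 1 aneuploid derivative against 1 euploid derivative, which differ in the his3 deletion and the markers as well as in the chromosome. The extra chromosome was visible in the gene bodies: the 435 tested genes of chromosome XII had a median log2 difference, Chr12 over euploid, of 0.75 at day 4 and 0.72 in log phase, against -0.06 and 0.01 over all tested genes.

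When a stop codon enters the ribosomal A site, the release factors eRF1 (Sup45) and eRF3 (Sup35) free the finished protein, and Rli1 then splits the ribosome with help from further recycling factors. Ribosome profiling of growing yeast typically shows a pile of reads at the stop codon, since termination is slower than most elongation steps, and very few reads in the 3' UTR. Reads beyond the stop codon can arise from stop codon readthrough, from ribosomes that were not recycled, from a neighbouring or overlapping gene, or from RNA that was not ribosome-bound, and counts by position do not separate these sources.

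Depth and sharpness differed between libraries. At day 4 the totals were 396306 and 2224955 reads in Chr12 and 211302 and 6215498 in the euploid, and in log phase 2354539 and 1981814 reads in Chr12 and 2118784 and 1455211 in the euploid. Replicate 1 of the euploid at day 4 was the shallowest library and stood apart with the highest post-stop share. Between 53.5% and 67.7% of gene-body reads fell in the main reading frame, depending on the library. Of the member rows, 5130 could be aligned on the stop codon, 2573 ended 60 nt after it and 2575 ended 59 nt after it. In 71 rows the last 60 columns matched those of another row, 42 of them with a partner on the same chromosome, and 71 rows held an uncovered stretch. Among the members, 1986 had no post-stop read in any library. As the cultures were measured in bulk, fewer cells with ribosomes on a message and fewer ribosomes per cell cannot be told apart.

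Reads of ribosomes at the stop codon were more prominent at day 4. The stop peak was defined as the reads per nt from 19 to 14 nt before the stop codon over the reads per nt in the gene body, which leaves out 20 codons at each end, a range that holds the read ends of ribosomes with the stop codon in the A site (15 nt before it). It was 3.23 and 3.59 in the Chr12 libraries at day 4 and 2.35 and 3.54 in the euploid ones, against 1.48 and 0.966 in Chr12 and 1.58 and 1.29 in the euploid in log phase. Every day 4 library lay above every log phase library, with group means of 3.41 ± 0.256 for Chr12 and 2.94 ± 0.839 for the euploid at day 4, against 1.22 ± 0.365 for Chr12 and 1.44 ± 0.207 for the euploid in log phase (SD, n = 2 each). The difference between the phases was 1.85 (4 against 4 libraries, two-sided exact permutation p = 0.0286, the smallest that the design allows), a ratio of 2.39. The peak was 2.79 times as high at day 4 in Chr12 and 2.05 times in the euploid, 1.82 times among the libraries numbered 1 and 3.16 times among those numbered 2. Leaving out any 1 library gave differences between 1.71 and 2.12, and counting each occupied position as 1 read gave 0.556 (exact permutation p = 0.0286).

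At day 4 the shape of the peak went with the replicate number. Averaged over genes, the density 15 nt before the stop codon was 6.35 and 10.9 times the gene body in Chr12 and 5.97 and 13.01 times in the euploid at day 4, against 2.93 and 1.21 times in Chr12 and 3.62 and 1.37 times in the euploid in log phase. The density 18 nt before it was 6.69 and 2.01 in Chr12 and 4.17 and 2.76 in the euploid at day 4, against 4.10 and 3.04 in Chr12 and 4.75 and 4.00 in the euploid in log phase. In replicate 2 at day 4 position 18 was no separate maximum, as the density 21 nt before the stop codon was 2.07 in Chr12 and 2.59 in the euploid. Reads 16 to 14 nt before the stop codon outnumbered those 19 to 17 nt before it by 5.12 and 3.11 in replicate 2 of Chr12 and of the euploid at day 4 and by 1.504 and 1.67 in replicate 2 of both strains in log phase. In replicate 1 that ratio lay between 0.851 and 0.976 in all 4 groups. In replicate 2 of log phase the ratio includes the gene FCF2, which alone gave 3751 stop peak reads in Chr12 and 3487 in the euploid. There the density 16 nt before the stop codon, 1.92 in Chr12 and 4.72 in the euploid, was above that 15 nt before it. The ratio without FCF2 was not calculated, so a replicate pattern in log phase cannot be told from this gene.

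**Figure D1:**
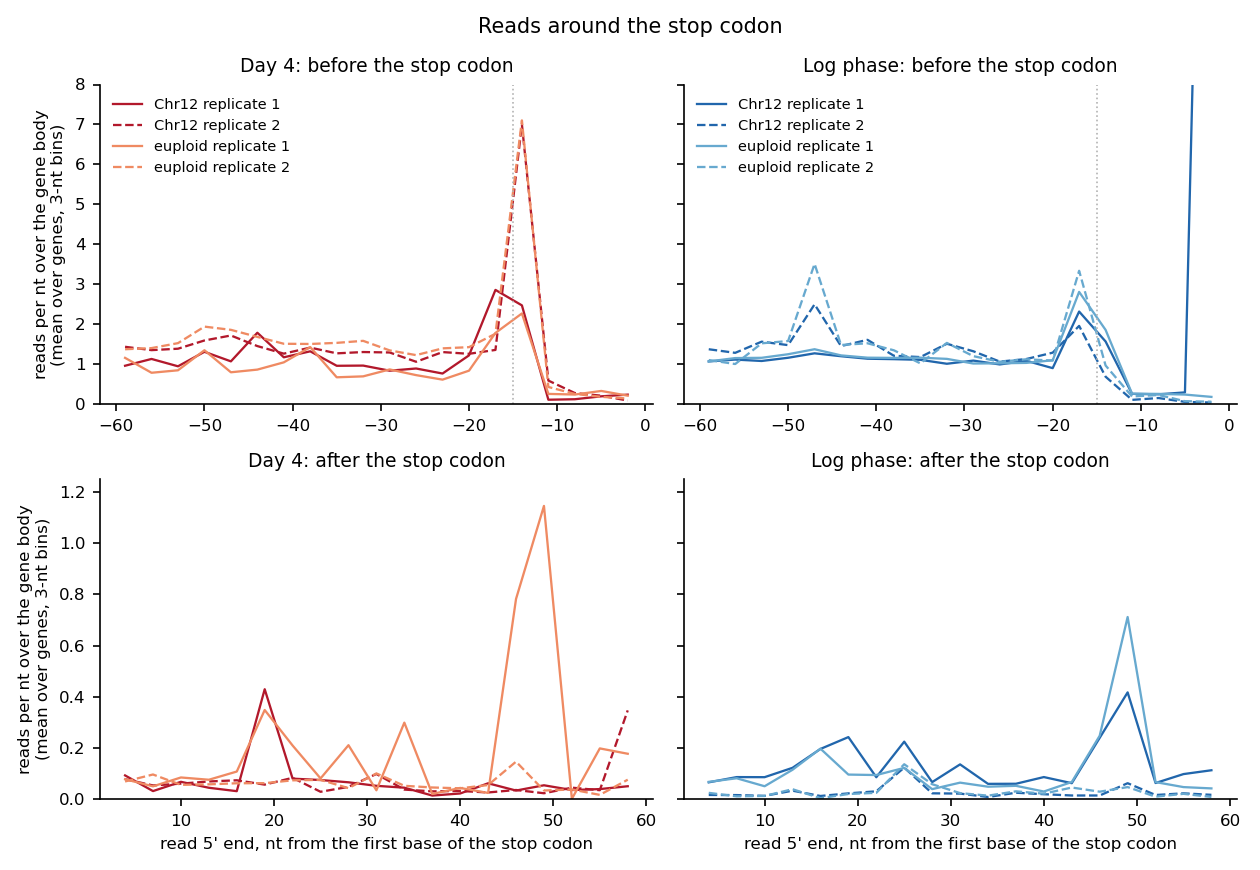
Reads around the stop codon, as reads per nt over the gene body of the same gene (y axis, mean over genes, bins of 3 nt) against the position of the read 5' end in nt from the first base of the stop codon (x axis), for day 4 on the left and log phase on the right, before the stop codon above and after it below. Solid lines are replicate 1, dashed lines replicate 2, and the dotted line marks 15 nt before the stop codon; 1 bin of Chr12 log phase replicate 1, next to the stop codon, lies beyond the upper axis, which ends at 8. The day 4 maximum is higher in replicate 2 than in replicate 1 of both strains.

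**Figure D2:**
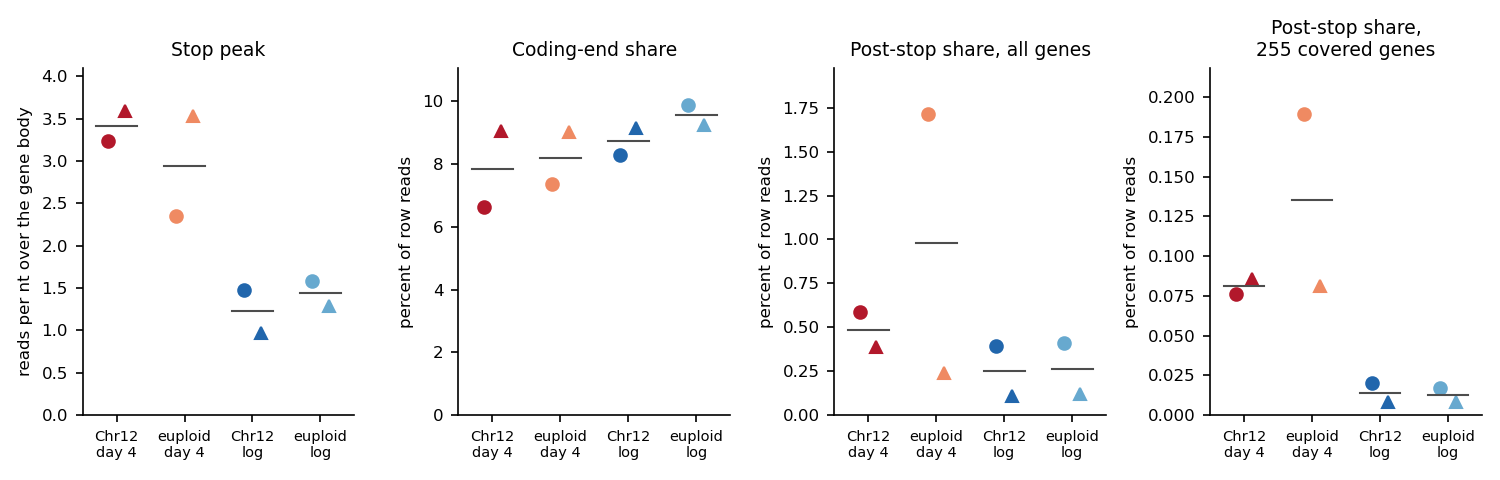
The stop peak (reads per nt over the gene body), the coding-end share and the post-stop share (percent of row reads, over all member rows and over 255 genes covered in every library) in each library, by group. Circles are replicate 1, triangles replicate 2 and lines the mean of 2; the stop peak and the post-stop share of the covered genes are higher in all 4 day 4 libraries than in all 4 log phase libraries, and the coding-end share and the post-stop share of all rows overlap.

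A few genes carried a large part of the stop peak reads, and they differed from library to library. FCF2, a factor of ribosomal RNA processing, held 36.6% of them in Chr12 and 34.1% in the euploid in replicate 2 of log phase, with 3751 and 3487 reads, and QCR8, a subunit of respiratory complex III, led replicate 1 of log phase with 3.53% in Chr12 and 7.13% in the euploid. At day 4 the leaders were ADH1 (9.58%) and HSP26 (4.05%) in replicates 1 and 2 of Chr12, and ADH2 (9.82%) and HSP26 (21.0%) in replicates 1 and 2 of the euploid. ADH1 and ADH2 encode alcohol dehydrogenases, and HSP26 a small heat shock protein. Without the 20 genes with most stop peak reads, which held 14.8% to 42.7% of these reads, the difference between the phases was 1.38 (exact permutation p = 0.0286).

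Among 255 genes covered in every library (50 or more gene-body reads in each), 192 had a higher mean stop peak at day 4 and 47 a lower one (75.3% higher). By strain, 169 were higher at day 4 in Chr12 and 167 in the euploid. Summed over these genes, the stop peak was 4.65 and 3.82 in Chr12 and 3.34 and 2.73 in the euploid at day 4, against 1.03 and 0.554 in Chr12 and 1.07 and 0.874 in the euploid in log phase, a difference of 2.75 (exact permutation p = 0.0286). The median over the same genes did not separate the phases. It was 0 and 1.03 in Chr12 and 0 and 1.2505 in the euploid at day 4, against 0.396 and 0 in Chr12 and 0.243 and 0 in the euploid in log phase (difference 0.409, exact permutation p = 0.429), and between 19.6% and 70.2% of these genes had no stop peak read in a given library.

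The size and timing of the stop peak differed between genes, and the following were picked from the 255 after their values were seen. SSA1, a cytosolic Hsp70 chaperone, was highest in replicate 1 at day 4, with 72.2 and 4.03 in Chr12 and 36.2 and 1.96 in the euploid at day 4, against 0.627 and 0.181 in Chr12 and 0.710 and 0.368 in the euploid in log phase. All 4 day 4 values of SSA1 lay above all log phase values. ADH1, the main fermentative alcohol dehydrogenase, had 39.3 and 2.70 in Chr12 and 28.1 and 2.68 in the euploid at day 4, against 0.791 and 0.114 in Chr12 and 0.917 and 0.0871 in the euploid in log phase, with no overlap.

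PIR3, a cell wall protein, had stop peaks of 17.9 and 30.0 in Chr12 and 3.56 and 15.3 in the euploid at day 4, and no stop peak read in any log phase library, from 89 to 159 gene-body reads there. NQM1, a transaldolase, had 42.9 and 0.881 in Chr12 and 19.6 and 1.63 in the euploid at day 4, against 0.341 and 0 in Chr12 and 0 and 0 in the euploid in log phase. HHT1, which encodes histone H3 and has a near-identical copy, overlapped between the phases, with 12.5 and 30.5 in Chr12 and 22.4 and 36.4 in the euploid at day 4, against 12.6 and 4.34 in Chr12 and 11.7 and 4.37 in the euploid in log phase. Genes with a lower mean at day 4 included ZTA1, an oxidoreductase of the zeta-crystallin family, with 2.01 and 0.317 in Chr12 and 34.3 and 1.78 in the euploid at day 4, against 35.95 and 0 in Chr12 and 124 and 0 in the euploid in log phase. PFK2, a subunit of phosphofructokinase, had 9.44 and 56.0 in Chr12 and 0 and 34.3 in the euploid at day 4, against 16.6 and 20.8 in Chr12 and 20.3 and 62.7 in the euploid in log phase. Reads from HHT1, ADH1 or SSA1 may be divided between near-identical copies in a way that the sources do not state, so their values are uncertain.

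No gene's stop peak share passed the test by itself. The share was tested with edgeR (quasi-likelihood, with the stop peak reads of a row set against its other reads, Benjamini-Hochberg over 1873 rows, 1870 of them members), a test added after the data were seen. In the comparisons of day 4 with log phase, 0 rows were called in Chr12 (percent of tested rows called 0) and 0 in the euploid (0 percent), with 131 and 89 rows at an unadjusted p under 0.05, of which 125 and 80 were higher at day 4. For Chr12 against the euploid, 0 rows were called at day 4 (0 percent, 43 at an unadjusted p under 0.05) and 0 in log phase (0 percent, 0 at an unadjusted p under 0.05), and 0 for the difference of the strain contrasts between phases (0 percent, 17 at an unadjusted p under 0.05). DESeq2 called 2 rows for day 4 against log phase in Chr12 and 0 in the other 4 comparisons. As the edgeR counts of 0 came from 2 libraries per group, they do not show that the stop peaks of single genes were alike. The fitted log2 change of the share from log phase to day 4 was above 0 in 1354 of 1870 members in Chr12 and in 1460 in the euploid, with medians of 1.44 and 1.62. Rows were tested only with 10 or more stop peak reads summed over the 8 libraries. Replicate 2 of the euploid at day 4 held 134268 stop peak reads, against 10225 to 17503 in the log phase libraries. Rows could thus pass this read minimum through day 4 alone, which favours changes above 0. These counts and medians are therefore not evidence of a rise.

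By gene list, stress proteins, respiration, glycolysis and ribosomal proteins had higher stop peaks in all day 4 libraries than in all log phase libraries. The lists were not tested against each other. The 17 stress protein genes (chaperones such as HSP26, HSP104 and SSA1) had a mean peak of 7.39 over the day 4 libraries, against 0.360 in log phase, with ranges of 2.94 to 11.9 and of 0.240 to 0.463. HSP26 alone held 1967 of the 2432 stop peak reads of this list in replicate 2 of Chr12 at day 4 and 28176 of 30763 in replicate 2 of the euploid at day 4. Without HSP26, left out after the data were seen, the list had 7.54 and 2.58 in Chr12 and 3.05 and 2.56 in the euploid at day 4 (mean 3.93), against 0.463 and 0.216 in Chr12 and 0.364 and 0.343 in the euploid in log phase (mean 0.347). The 21 genes of respiration and gluconeogenesis (CIT1, PCK1 and ICL1 among them) had 6.99 at day 4, against 0.497 in log phase (4.51 to 11.6, against 0.185 to 1.20). The log phase values of this list rest on only 4 and 2 stop peak reads in Chr12 and 4 and 14 in the euploid. The 21 genes of glycolysis and fermentation had 5.13 at day 4, against 0.668 in log phase (1.48 to 10.1, against 0.456 to 1.09). The 136 ribosomal protein genes had 4.35 at day 4, against 1.27 in log phase (3.06 to 5.46, against 0.553 to 1.92). The stop peak needs a gene body, so it rests on 94 of these 136 genes. All members together (5130 of them with a gene body) had 3.18 at day 4, against 1.33 in log phase.

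Other lists overlapped between the phases. The 7 recycling and rescue genes, 6 of them with a gene body, had a mean stop peak of 6.05 at day 4, against 1.92 in log phase (2.24 to 13.2, against 0.914 to 3.69), with 3 to 73 stop peak reads per library at day 4. The 458 genes of chromosome XII, 443 of them with a gene body, had a mean stop peak of 2.70 at day 4, against 2.21 in log phase. FCF2 lies on chromosome XII and held most of the list's stop peak reads in replicate 2 of log phase. These were 3751 of 5008 in Chr12 and 3487 of 4299 in the euploid, where the peak was 2.55 and 4.13. In replicate 1 of log phase it was 1.05 and 1.09, below the day 4 range of 1.82 to 3.42. Values without FCF2 were not calculated. The 10 hydrophilin and stationary phase genes (GRE1, SIP18 and others, expressed late in culture) had 0.781 at day 4, against 0.240 in log phase, with 0 to 3 stop peak reads per library in log phase. The 12 termination genes had 1.85 at day 4, against 0.530 in log phase, with 0 stop peak reads in replicate 1 of the euploid at day 4. The median fitted log2 change of the stop peak share, day 4 over log phase, was 1.83 in Chr12 and 1.82 in the euploid for the 94 tested ribosomal protein genes, of which 80 and 78 were above 0. For the 16 tested stress genes it was 1.23 in Chr12 and 2.41 in the euploid (11 and 12 above 0), and for the 19 tested glycolytic genes 2.79 and 1.70 (15 and 16 above 0), against 1.44 and 1.62 over all tested rows. For the 10 hydrophilin genes it was 0.14 and 0.52, with 5 and 6 above 0. These medians and counts share the limit given above for the minimum of 10 stop peak reads, so they are not evidence of a rise at day 4.

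**Figure D3:**
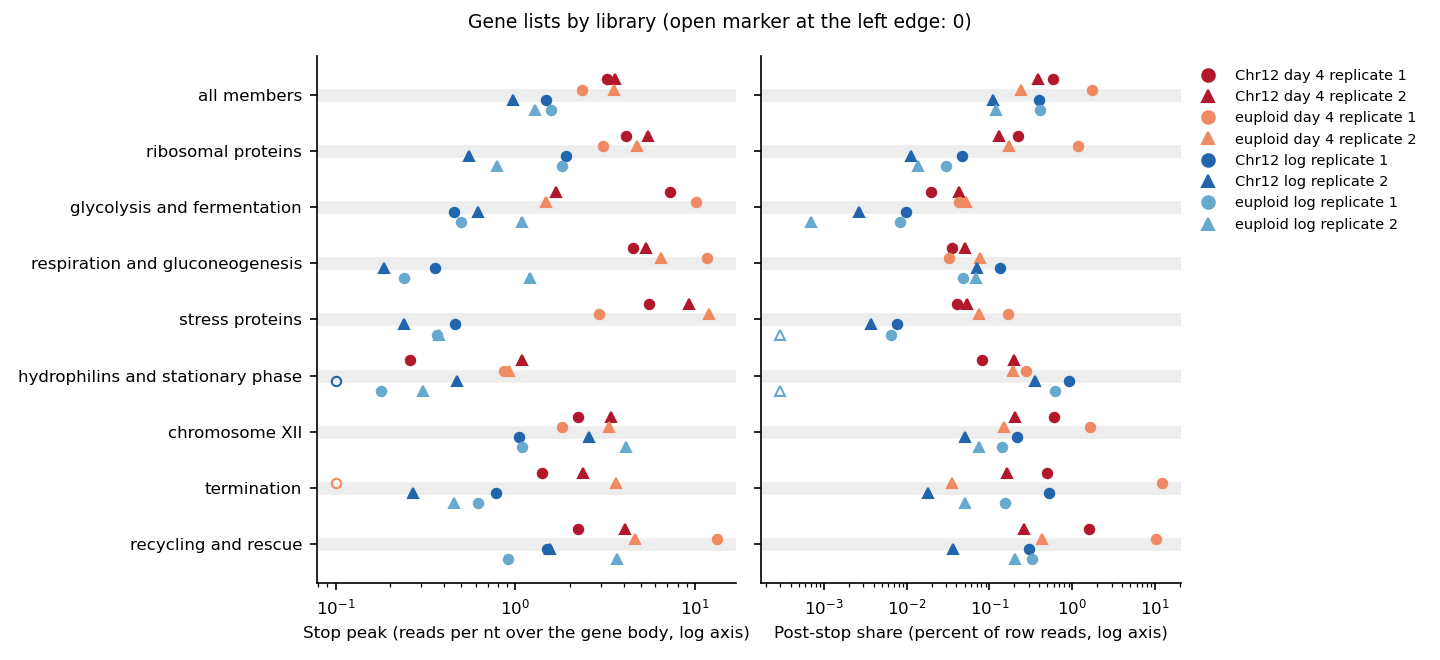
Stop peak (reads per nt over the gene body, left, log axis) and post-stop share (percent of row reads, right, log axis) of each gene list in each library. Circles are replicate 1, triangles replicate 2, and an open marker at the left edge stands for 0; the day 4 libraries lie right of the log phase libraries in the left panel for ribosomal proteins, glycolysis, respiration and stress proteins, and in the right panel for ribosomal proteins, glycolysis and stress proteins.

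The strains did not differ in the stop peak beyond the spread between replicates. Chr12 minus euploid was 0.882 and 0.0584 at day 4 and -0.103 and -0.326 in log phase by replicate number. Averaged over the phases the difference was 0.128 (exact permutation within phases p = 0.833, a test that cannot pass 0.05 with its 36 permutations).

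The coding-end window held about as many reads per nt as the gene body. It took 6.63% and 9.05% of member reads in Chr12 and 7.38% and 9.03% in the euploid at day 4, against 8.29% and 9.15% in Chr12 and 9.89% and 9.24% in the euploid in log phase. Day 4 minus log phase was -1.13 percentage points, and the phases overlapped (4 against 4 libraries, two-sided exact permutation p = 0.143). The difference was -2.09 among the libraries numbered 1 and -0.159 among those numbered 2. Chr12 minus euploid was -0.604 percentage points over both phases (exact permutation within phases p = 0.389).

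The direction of the phase difference depended on a pair of genes. RPL41A and RPL41B, near-identical genes for the smallest ribosomal protein, whose coding sequence is hardly longer than the window, held 8.37% and 3.22% of all coding-end reads in Chr12 and 7.71% and 3.18% in the euploid at day 4, against 32.4% and 19.8% in Chr12 and 37.3% and 18.2% in the euploid in log phase. Without them the coding-end share was 6.16% and 8.86% in Chr12 and 6.88% and 8.87% in the euploid at day 4, against 6.01% and 7.84% in Chr12 and 6.66% and 7.99% in the euploid in log phase. The difference then became 0.566 percentage points higher at day 4 (exact permutation p = 0.486). Per nt, the window held 1.08 and 1.34 times the gene-body density in Chr12 and 1.08 and 1.36 times in the euploid at day 4, against 0.931 and 1.08 times in Chr12 and 1.01 and 1.09 times in the euploid in log phase. The last 30 nt before the stop codon, which hold the stop peak, took 1.40 percentage points more reads at day 4 (exact permutation p = 0.0286).

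Genes with rows of 210 to 546 columns led the coding-end ranking, and the window takes 60 of these. Among 1361 genes with at least 20 reads in every library and no shared window, the highest mean shares over the 8 libraries were 80.0% for YER053C-A, 77.0% for COX9, 72.5% for QCR8, 65.5% for RPL41A and 62.5% for QCR9. RPL41A had the shortest of these rows (210 columns), and QCR8 and QCR9 had 416 and 546. In replicate 1 of the euploid in log phase QCR8 had 1205 stop peak reads and 80 gene-body reads. How far row length accounts for the ranking was not tested. COX9, QCR8 and QCR9 encode small subunits of respiratory chain complexes. QCR8 had 73.5% and 48.02% in Chr12 and 48.9% and 60.6% in the euploid at day 4, against 90.1% and 84.6% in Chr12 and 90.3% and 84.2% in the euploid in log phase. All 4 day 4 values of QCR8 lay below all log phase values, and RPL41A, with 63.2% and 49.9% in Chr12 and 79.9% and 51.6% in the euploid at day 4, against 81.3% and 61.9% in Chr12 and 82.6% and 53.3% in the euploid in log phase, overlapped.

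Of 4219 tested members, 10 changed their coding-end share between day 4 and log phase in Chr12, and 1 in the euploid. Of 4291 rows tested with edgeR, 0.233% were called in Chr12 (7 higher and 3 lower at day 4, 296 at an unadjusted p under 0.05) and 0.0233% in the euploid (1 higher, 217 at an unadjusted p under 0.05). The median fitted log2 change was 0.52 in Chr12 and 0.73 in the euploid. These medians share the limit of the read minimum given for the stop peak share. For Chr12 against the euploid, 0.0466% were called at day 4 (0 higher and 2 lower, 174 at an unadjusted p under 0.05) and 0 percent in log phase (0 rows, 26 at an unadjusted p under 0.05). For the difference of the strain contrasts between phases, 0 rows were called (0 percent, 96 at an unadjusted p under 0.05). DESeq2 called 4 rows for the phases in Chr12, 1 in the euploid and 0 in the other 3 comparisons. With 1 read counted per occupied position, 0 rows were called for the phases in Chr12, so none of the 10 kept its call, and 1 row was called in the euploid, which was not ENO1.

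ENO1, which encodes the glycolytic enzyme enolase, was the gene called in the euploid and was also called in Chr12. Its coding-end share was 1.19% and 2.75% in Chr12 and 1.96% and 3.48% in the euploid at day 4, against 0.0724% and 0.0636% in Chr12 and 0.0915% and 0.0389% in the euploid in log phase, so that the phases did not overlap. The log2 change of the share was 5.36 ± 0.99 (SE) in the euploid (edgeR, adjusted p = 0.000249) and 4.74 ± 0.95 in Chr12 (adjusted p = 0.00088). Without replicate 2 of the euploid in log phase or at day 4, the adjusted p in the euploid was 0.197 or 0.0707, and with 1 read per position the change was 1.89 (adjusted p = 0.142). The near-identical gene ENO2 was not called and had its lower values at day 4, with 0.233% and 1.503% in Chr12 and 0.474% and 0.775% in the euploid at day 4, against 2.18% and 1.74% in Chr12 and 2.12% and 2.46% in the euploid in log phase. How reads that match both copies were placed is not given in the sources used here, so the shares of both are uncertain.

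SSA1 and NQM1 had more reads at their coding end at day 4. SSA1 had 21.0% and 3.64% in Chr12 and 10.4% and 1.78% in the euploid at day 4, against 0.367% and 0.298% in Chr12 and 0.633% and 0.484% in the euploid in log phase (log2 change in Chr12 4.91 ± 1.05, edgeR adjusted p = 0.00243). Its near-identical copy SSA2 had 0% and 0.442% in Chr12 and 1.90% and 0.230% in the euploid at day 4, against 0.824% and 0.394% in Chr12 and 0.763% and 0.486% in the euploid in log phase. NQM1 had 23.2% and 3.65% in Chr12 and 13.1% and 4.24% in the euploid at day 4, against 0.231% and 0% in Chr12 and 0% and 0.183% in the euploid in log phase. For SSA1 and NQM1 the day 4 and log phase libraries did not overlap. The log2 change of NQM1 in Chr12 was 6.28 ± 1.45 (edgeR adjusted p = 0.0113), and without Chr12 replicate 1 or 2 in log phase or replicate 1 at day 4 the adjusted p was between 0.114 and 0.589.

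TRM11, the catalytic subunit of a tRNA guanosine methyltransferase, placed most of its few reads at the coding end at day 4. It had 46 of 54 and 32 of 41 reads there in Chr12 and 1 of 5 and 62 of 83 in the euploid at day 4, against 4 of 181 and 3 of 136 in Chr12 and 5 of 166 and 2 of 107 in the euploid in log phase. Its log2 change in Chr12 was 7.59 ± 1.42 (edgeR adjusted p = 0.000189), and it was called with each library left out in turn. With 1 read per position its change was 2.75 (adjusted p = 0.902), which was not called. PIR3 had 12.9% and 16.7% in Chr12 and 6.67% and 11.7% in the euploid at day 4, against 0.541% and 0% in Chr12 and 0% in both euploid libraries in log phase. Its log2 change in Chr12 was 5.60 ± 1.42 (edgeR adjusted p = 0.0372), and the call was lost without any 1 of 7 libraries, with adjusted p between 0.0573 and 0.825. PTK1, a protein kinase, and CSI1, a subunit of the COP9 signalosome, were called from 35 and 13 coding-end reads in all libraries.

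The genes called lower at day 4 had their coding-end reads mainly in replicate 1. AHK1, a scaffold protein of the osmotic stress pathway, had 17 of 52 and 2 of 38 reads there in Chr12 and 1981 of 1997 and 1 of 101 in the euploid at day 4, against 5148 of 5211 and 15 of 36 in Chr12 and 7275 of 7320 and 8 of 19 in the euploid in log phase. Its log2 change in Chr12 was -5.41 ± 1.40 (edgeR adjusted p = 0.0457), and with 1 library left out it lost the call for 5 of 8 libraries, with a change of -1.76 without replicate 1 of Chr12 in log phase. CDC26, a subunit of the anaphase-promoting complex, had 0 of 7 and 0 of 6 in Chr12 and 53 of 54 and 8 of 43 in the euploid at day 4, against 108 of 121 and 48 of 54 in Chr12 and 133 of 137 and 20 of 25 in the euploid in log phase. The 13 reads of CDC26 in Chr12 at day 4 carried its call (log2 change -9.11 ± 2.18, adjusted p = 0.0156), which was lost without any 1 of the 4 Chr12 libraries, with adjusted p between 0.163 and 0.317. With reads placed by the P site the change of CDC26 was in the opposite direction (3.38, adjusted p = 0.776).

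YBR190W, a gene of no assigned name, had 1 of 18 and 0 of 12 reads at the coding end in Chr12 and 170 of 173 and 0 of 1 in the euploid at day 4, against 296 of 299 and 6 of 8 in Chr12 and 427 of 430 and 5 of 5 in the euploid in log phase. It was lower in Chr12 at day 4 than in log phase (log2 change -9.63 ± 1.79, edgeR adjusted p = 0.000189) and than in the euploid at day 4 (-9.21 ± 1.89, adjusted p = 0.005). The first of these calls had an adjusted p of 0.478 without replicate 1 of Chr12 in log phase. YJL047C-A, also unnamed, had 0 of 155 and 0 of 5 reads at the coding end in Chr12 at day 4 and 63 of 85 and 1 of 4 in the euploid at day 4 (log2 difference -10.33 ± 2.35, adjusted p = 0.0231), and 2 reads or fewer per library in log phase. Without replicate 1 of Chr12 at day 4 its adjusted p was 0.999.

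**Figure D4:**
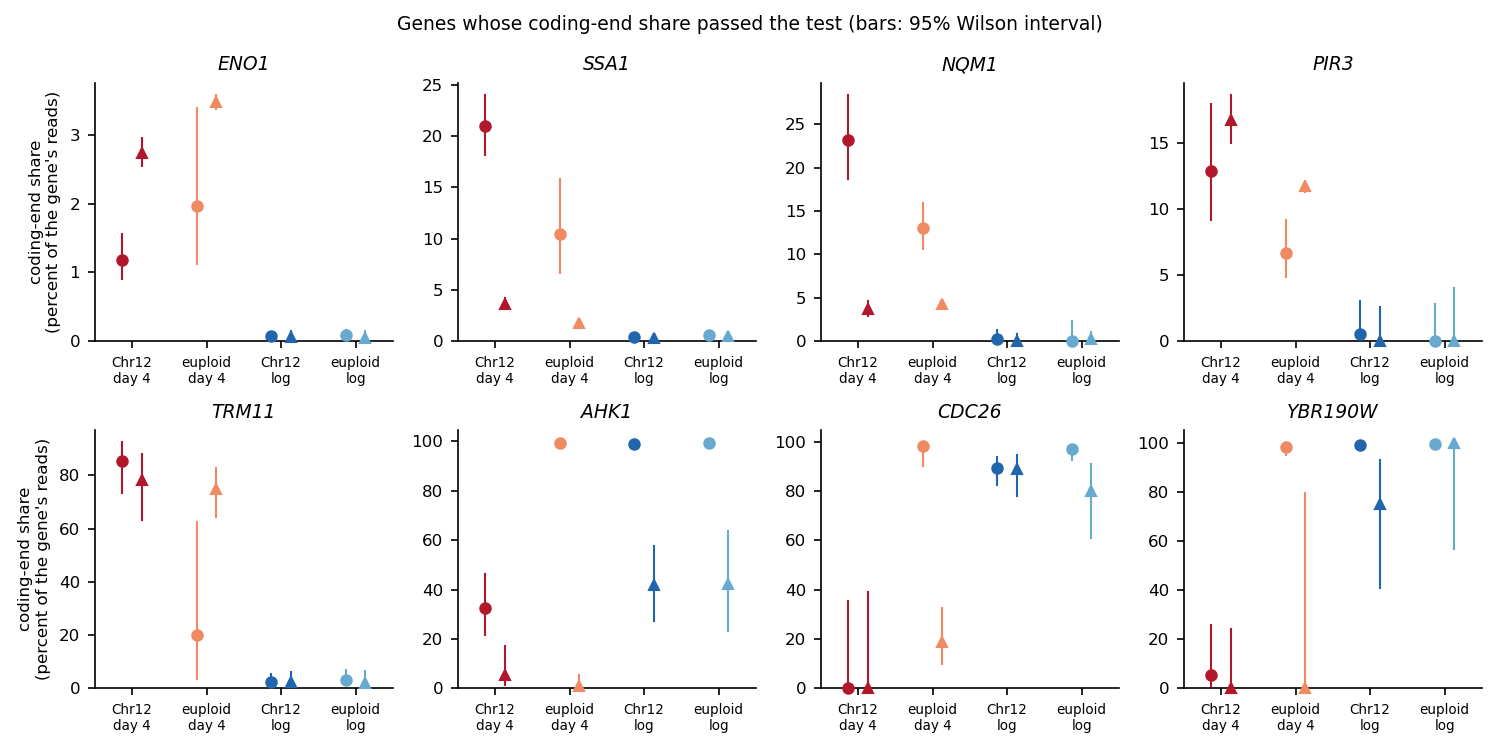
Coding-end share (percent of the gene's reads, y axis, a separate scale for each gene) of 8 genes past the test, by group, with 95% Wilson intervals as bars. Circles are replicate 1 and triangles replicate 2; ENO1, SSA1, NQM1, PIR3 and TRM11 are higher in the day 4 libraries, and AHK1, CDC26 and YBR190W are near 100% in replicate 1 of the euploid at day 4 and at 32.7% or below in both Chr12 libraries at day 4.

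Few reads began after the stop codon. The post-stop window held 0.585% and 0.388% of member reads in Chr12 and 1.72% and 0.240% in the euploid at day 4, against 0.395% and 0.109% in Chr12 and 0.407% and 0.120% in the euploid in log phase. The means were 0.487% ± 0.139 for Chr12 and 0.978% ± 1.04 for the euploid at day 4, against 0.252% ± 0.202 for Chr12 and 0.264% ± 0.203 for the euploid in log phase (SD, n = 2 each). Per nt this was between 0.0172 and 0.257 of the gene-body density. In all 4 groups replicate 1 was above replicate 2. The phases overlapped, with 0.475 percentage points more at day 4 (4 against 4 libraries, two-sided exact permutation p = 0.171), while the ratio of day 4 to log phase was 2.87 among the libraries numbered 1 and 2.74 among those numbered 2. Chr12 minus euploid was -1.13 and 0.148 at day 4 and -0.0125 and -0.0104 in log phase by replicate number, and -0.251 over both phases (exact permutation within phases p = 0.722).

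A few rows held much of this signal. MTC7, a gene linked to telomere capping, was the richest row in every library and held 15.03% to 51.26% of all post-stop reads, and most of its 18048 window reads lay in the last columns of the row, at the edge of the window. LST4, a regulator of nutrient permease trafficking, had 236 and 0 post-stop reads in Chr12 and 394 and 0 in the euploid at day 4, against 959 and 1 in Chr12 and 430 and 0 in the euploid in log phase, and each of these reads lay at 1 position, the column numbered 41 of the window. Both genes were singled out after their values were seen. Without MTC7 the post-stop share was 0.411 percentage points higher at day 4 (exact permutation p = 0.143).

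Over a fixed set of genes the phases separated. Over the 255 covered genes, a set chosen after the data were seen, the post-stop share was 0.0760% and 0.0859% in Chr12 and 0.189% and 0.0810% in the euploid at day 4, against 0.0200% and 0.00829% in Chr12 and 0.0172% and 0.00791% in the euploid in log phase. Reads were summed over the set, so that each gene counts by its reads, which differ between the phases. These shares rest on 85, 540, 90 and 1519 post-stop reads at day 4 and on 179, 60, 128 and 39 in log phase, in the same order of libraries. The mean was 0.108% at day 4 and 0.0133% in log phase, a ratio of 8.10 (exact permutation p = 0.0286, the smallest possible). The ratio was 5.71 in Chr12 and 10.8 in the euploid, and 7.14 and 10.3 among the libraries numbered 1 and 2. In absolute terms the share stayed below 0.2% in each of these libraries. Over all members, the first 30 nt of the window alone took 0.222 percentage points more reads at day 4 (exact permutation p = 0.0286).

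Post-stop reads were spread over the 3 reading frames. The main frame held 33.9% and 24.2% of them in Chr12 and 28.9% and 32.6% in the euploid at day 4, against 39.1% and 30.2% in Chr12 and 46.1% and 25.3% in the euploid in log phase. In replicate 2 of Chr12 at day 4 another frame held 55.2%, where 1 column of MTC7 alone held 2703 of 7326 reads. Without MTC7 and LST4, a setting added after the data were seen, the main frame held 37.2% and 34.2% in Chr12 and 36.9% and 33.6% in the euploid at day 4, against 38.7% and 38.05% in Chr12 and 39.3% and 30.9% in the euploid in log phase. In the coding-end window it held between 53.8% and 72.2%. Occupied positions were denser near the stop codon: the first 15 nt held 1.15 and 2.24 times as many occupied positions as the last 15 nt in Chr12 and 1.08 and 2.71 times in the euploid at day 4, against 1.30 and 1.09 times in Chr12 and 1.49 and 1.21 times in the euploid in log phase. Members whose next gene lies on the same strand (2408, by gene order in the S288C reference R64) had a post-stop read in 61.7% of cases, and those whose next gene lies on the opposite strand (2780) in 63.5%, leaving out MTC7. By reads, the post-stop share of members with the next gene on the same strand was 0.487% and 0.180% in Chr12 and 1.17% and 0.167% in the euploid at day 4, against 0.285% and 0.0715% in Chr12 and 0.196% and 0.0868% in the euploid in log phase. With the next gene on the opposite strand it was 0.435% and 0.207% in Chr12 and 1.19% and 0.1496% in the euploid at day 4, against 0.151% and 0.0501% in Chr12 and 0.124% and 0.0620% in the euploid in log phase. The same-strand share was thus higher in all 4 log phase libraries and in 2 of the 4 day 4 libraries, a difference that was not tested. LST4, whose next gene lies on the same strand, was not left out here. In replicate 1 of log phase its single column held 959 post-stop reads in Chr12 and 430 in the euploid, and at day 4 236 and 394. Shares by strand of the next gene without LST4 are not given here.

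The 10 genes with the highest post-stop share were high mostly in replicate 1. Their means over the 8 libraries ran from 91.2% for MTC7 through 28.8% for DPP1, 28.2% for CHO1, 18.4% for RDS2, 15.99% for NUP84, 13.8% for OPI1, 12.2% for PUP3, 9.001% for CAB2 and 8.14% for YCL012C to 7.77% for TGL4. MTC7 had 84.8% and 93.2% in Chr12 and 97.7% and 90.2% in the euploid at day 4, against 91.1% and 88.3% in Chr12 and 93.2% and 90.9% in the euploid in log phase. DPP1, a lipid phosphatase, had 8.11% and 0.833% in Chr12 and 66.7% and 0% in the euploid at day 4, against 74.2% and 2.22% in Chr12 and 71.5% and 6.52% in the euploid in log phase, and 1 column held 98.5% of its window reads. CHO1, the phosphatidylserine synthase, had 48.8% and 6.29% in Chr12 and 73.8% and 2.44% in the euploid at day 4, against 60.7% and 2.26% in Chr12 and 28.0% and 3.33% in the euploid in log phase. A single column held 93.9% of the window reads of OPI1, a repressor of phospholipid synthesis genes, and 95% of those of TGL4, a triacylglycerol lipase.

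NUP84, a nuclear pore subunit, and PUP3, a subunit of the proteasome core, had their high values in replicate 1 at day 4. NUP84 had 46.3% and 0% in Chr12 and 68.6% and 2.65% in the euploid at day 4, against 2.46% and 0% in Chr12 and 7.87% and 0% in the euploid in log phase. PUP3 had 42.5% and 1.39% in Chr12 and 50% and 0.395% in the euploid at day 4, against 2.56% and 0% in Chr12 and 0.490% and 0% in the euploid in log phase. RDS2, a regulator of gluconeogenesis, had reads after the stop codon in all 8 libraries, with 17.4% and 7.56% in Chr12 and 22.2% and 5.18% in the euploid at day 4, against 36% and 15.4% in Chr12 and 31.2% and 12.5% in the euploid in log phase. These shares rest on few reads. Over the 8 libraries the window held 84 reads in NUP84, 66 in PUP3 and 84 in RDS2, of which 1 column held 29.8%, 36.4% and 58.3%.

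**Figure D5:**
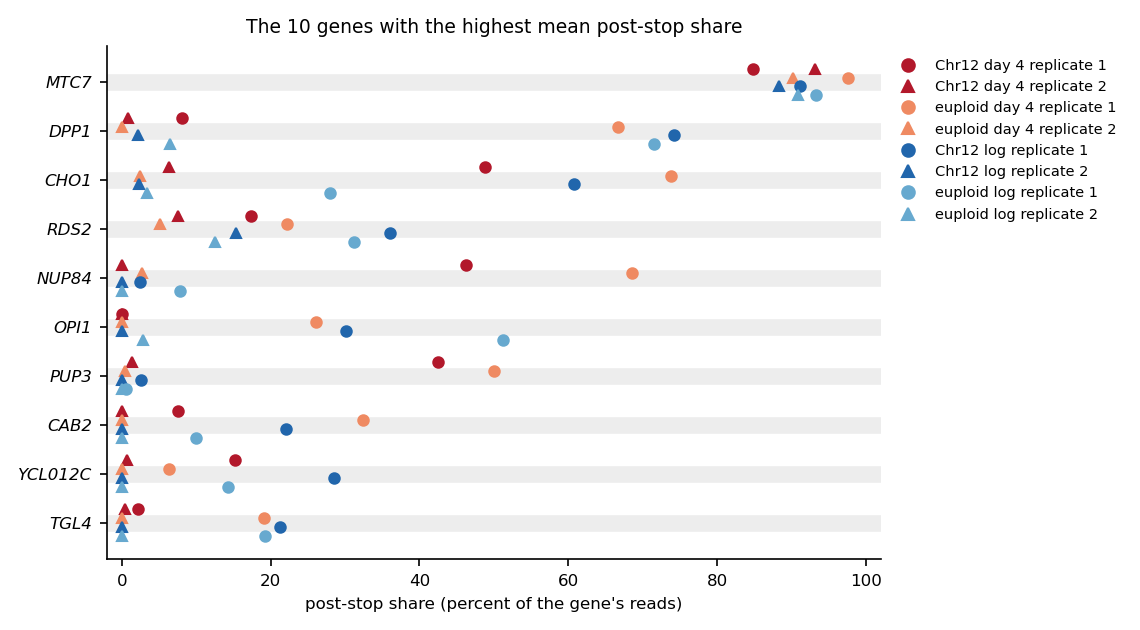
Post-stop share (percent of the gene's reads, x axis) of the 10 genes with the highest mean share, in each library. Circles are replicate 1 and triangles replicate 2; MTC7 is above 80% in every library, and the triangles of the other 9 genes lie at 15.4% or below.

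Gene by gene, no post-stop share passed the test. With edgeR, 562 rows (526 of them members) had the 10 window reads needed. For day 4 against log phase 0 rows were called in Chr12 (0 percent, 43 at an unadjusted p under 0.05, median log2 change 0.10) and 0 in the euploid (0 percent, 38 at an unadjusted p under 0.05, median 0.91). For Chr12 against the euploid 0 were called at day 4 (0 percent, 7 at an unadjusted p under 0.05) and 0 in log phase (0 percent, 0 at an unadjusted p under 0.05), and for the difference of the strain contrasts 0 (0 percent, 5 at an unadjusted p under 0.05). DESeq2 called 1 row for the phases in Chr12 and 0 in the other 4 comparisons. A count of 0 here does not show that the shares of single genes were alike. The medians share the limit of the read minimum given for the stop peak share.

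Summed over their genes, the ribosomal protein, glycolytic and stress protein lists had higher post-stop shares in all day 4 libraries than in all log phase libraries. For ribosomal proteins the share was 0.223% and 0.130% in Chr12 and 1.18% and 0.172% in the euploid at day 4, against 0.0469% and 0.0114% in Chr12 and 0.0299% and 0.0137% in the euploid in log phase. The fitted log2 change was above 0 for 33 of 40 tested ribosomal protein genes in Chr12 (median 2.30) and for 38 of 40 in the euploid (median 4.08), none of them called. Only these 40 of the 136 genes had 10 or more post-stop reads over the 8 libraries. Replicate 2 of the euploid at day 4 held 433 of the list's post-stop reads, against 66 to 314 in the log phase libraries. Genes could thus pass through day 4 alone, which favours changes above 0. Such counts, here and for the lists below, are therefore not evidence of a rise. Glycolytic genes had 0.0198% and 0.0424% in Chr12 and 0.0427% and 0.0516% in the euploid at day 4, against 0.0099% and 0.00264% in Chr12 and 0.00832% and 0.000703% in the euploid in log phase, with 14 and 13 of 15 tested genes above 0 in Chr12 and the euploid. The glycolytic shares came from 8 and 89 post-stop reads in Chr12 and 4 and 452 in the euploid at day 4. In log phase they came from 33 and 6 in Chr12 and 21 and 1 in the euploid. Stress protein genes had 0.0403% and 0.0532% in Chr12 and 0.169% and 0.0742% in the euploid at day 4, against 0.00765% and 0.00373% in Chr12 and 0.00657% and 0% in the euploid in log phase. These shares rest on few reads, 3 and 25 in Chr12 and 10 and 243 in the euploid at day 4, against 7 and 3 in Chr12 and 4 and 0 in the euploid in log phase. The fitted log2 change was above 0 for 1 of 4 tested stress genes in Chr12 (median -2.04) and for 2 of 4 in the euploid (median 1.91). The lists of respiration and of hydrophilins overlapped between the phases.

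Genes known for stop codon readthrough in yeast gave no post-stop read. PDE2, a cyclic AMP phosphodiesterase, had 0 post-stop reads among 21 and 62 row reads in Chr12 and 9 and 169 in the euploid at day 4, and among 56 and 31 in Chr12 and 98 and 34 in the euploid in log phase. The deepest of these, replicate 2 of the euploid at day 4, allows a share of up to 2.22% (upper bound of the 95% Wilson interval, counting error only). IMP3, a component of the small subunit processome, had 0 among 4 and 31 row reads in Chr12 and 0 and 49 in the euploid at day 4, and among 80 and 54 in Chr12 and 46 and 34 in the euploid in log phase. A low rate of readthrough was not detectable at this depth, and BSC4 was below the read minimum.

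The factors that act at the stop codon had fewer gene-body reads at day 4 or did not pass the test. Of 18 tested termination, recycling and rescue genes, 6 fell and 0 rose between log phase and day 4 in Chr12, and 6 fell and 0 rose in the euploid (edgeR over 5326 genes). Among all tested genes 10.2% fell and 14.3% rose in Chr12, and 12% fell and 16.1% rose in the euploid. In both strains TPA1, a hydroxylase that affects termination, TRM112, the partner of the eRF1 methyltransferase, and HCR1, an initiation factor subunit that also acts in termination and recycling, fell. Their log2 changes were -3.33 ± 0.52, -2.10 ± 0.48 and -2.42 ± 0.51 (SE) in Chr12 and -2.97 ± 0.52, -2.31 ± 0.50 and -2.40 ± 0.51 in the euploid (adjusted p from 0.00481 to 0.0161). SUP35, DBP5 and NAM7 passed the test only in Chr12 (-1.61 ± 0.45, -1.65 ± 0.50 and -2.002 ± 0.55), and PAB1, RLI1 and TMA22 only in the euploid (-2.62 ± 0.61, -1.96 ± 0.56 and -1.79 ± 0.55). In the other strain their fitted changes were also below 0 but did not pass. For SUP35, DBP5 and NAM7 they were -1.08, -0.76 and -1.36 in the euploid, and for PAB1, RLI1 and TMA22 -1.76, -1.49 and -1.21 in Chr12. SUP35 encodes eRF3, DBP5 an RNA helicase with a role in termination, NAM7 the nonsense-mediated decay helicase Upf1, PAB1 the poly(A)-binding protein, RLI1 the recycling ATPase and TMA22 a factor that recycles the small subunit.

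SUP45, which encodes eRF1, had 218 and 244 RPM (gene-body reads scaled to the library's gene-body total) in Chr12 and 111 and 188 in the euploid at day 4, against 270 and 310 in Chr12 and 276 and 419 in the euploid in log phase. Its day 4 values all lay below its log phase values, with log2 changes of -0.91 ± 0.51 in Chr12 (edgeR adjusted p = 0.242) and -1.42 ± 0.52 in the euploid (adjusted p = 0.0764), which did not pass. ITT1 was the only termination gene with a fitted change above 0, from 4 to 172 gene-body reads per library. It had 34.7 and 37.1 RPM in Chr12 and 24.7 and 33.4 in the euploid at day 4. In log phase ITT1 had 13.5 and 5.27 in Chr12 and 11.0 and 5.45 in the euploid. Its log2 changes were 1.39 ± 0.64 in Chr12 (edgeR adjusted p = 0.157) and 1.62 ± 0.66 in the euploid (adjusted p = 0.105), which did not pass. DOM34 and HBS1, which rescue stalled ribosomes, had log2 changes of -0.48 ± 0.56 and -0.66 ± 0.47 in Chr12 and -0.68 ± 0.56 and -0.76 ± 0.48 in the euploid. The median log2 change was -1.58 in Chr12 and -1.13 in the euploid over the termination genes and -0.95 and -1.28 over the recycling and rescue genes, against 0.22 and 0.31 over all tested genes. The number of these genes called was 1 to 9 in Chr12 and 2 to 7 in the euploid with 1 library left out. These are levels of ribosome footprints, which depend on both mRNA and its translation.

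Between the strains, 0 of the 18 genes were called at day 4 or in log phase, where 0.113% of all tested genes were higher and 0 percent lower in Chr12 at day 4, and 0 percent were higher and 0 percent lower in log phase. For the difference of the strain contrasts 0 percent were higher and 0 percent lower. Over all genes, 484, 113 and 244 had an unadjusted p under 0.05 in these 3 comparisons, and 0 of the 18 factor genes were called in them by DESeq2. HCR1, the gene of these lists with the largest fitted difference, lies on chromosome XII and had log2 differences of 1.04 ± 0.50 at day 4 and 1.06 ± 0.49 in log phase (adjusted p = 0.57 and 1).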

How the data were processed

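Ribosome profiling (Ezra-seq, run by a company on cells collected by vacuum filtration and flash frozen) was analysed for 8 YPS1009 libraries. The authors used CutAdapt to trim adapters, discarded noncoding RNA reads and reads whose first base was poor, and mapped what remained with bowtie2 to a YPS1009 assembly. They deposited raw counts of read 5' ends per nucleotide, beginning 72 nt upstream of each ATG and ending about 60 nt past each stop codon. Removal of PCR duplicates is not described, and the handling of reads with several matches is not given in the sources used here. For replicate 1 of each group a second deposited table of counts exists, whose making is not stated, and it served only as an alternative. All columns of per-sample values could be assigned to a sample (0 left out).

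Window, coding-end and stop peak reads were summed per row. A row's share was tested with edgeR 4.0.16 in R 4.3.3 (glmQLFit and glmQLFTest on window reads against the other reads of the row, 1 term per library, TMM-scaled totals, at least 10 window reads, Benjamini-Hochberg at 0.05 over all tested rows). Gene-body counts were tested with edgeR after filterByExpr. DESeq2 1.42.0 was an alternative. Shares over all members were compared with two-sided exact permutation tests over libraries (70 permutations between phases, 36 within phases between strains). The code was tested on simulated data. Named genes are, per window and comparison, up to 3 per direction with the largest log2 change among called members with at least 50 window reads and 1 sign in both replicate pairs, the 10 and 5 genes with the highest mean post-stop and coding-end shares, called genes of the lists, and PDE2, BSC4 and IMP3. Genes outside this rule were chosen after their values were seen: the leaders and examples of the stop peak, MTC7 and LST4 by their reads, RPL41B, PTK1 and CSI1, and the near-identical copies ENO2 and SSA2. SUP45, ITT1, DOM34 and HBS1 are named as members of the lists that were not called. The members and lists were chosen with earlier results of these data known. Gene names come from the R64 table, which named 5201 members. No sequence is printed, since no genome of the strain was used here. Intervals cover counting error only.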

Additional observations from a re-analysis of the deposited data

Results flagged for a closer look

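The stop peak moved in opposite directions with the extra chromosome in the 2 phases. At day 4 it was higher in Chr12 than in the euploid in both replicates, with Chr12 minus euploid at 0.882 in replicate 1 and 0.0584 in replicate 2. In log phase it was lower in Chr12 in both replicates, with -0.103 in replicate 1 and -0.326 in replicate 2. The difference between the phases in the strain contrast was not tested for this measure, and 2 libraries per group are too few for the signs to carry weight.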

How the results depend on the processing

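At the main settings the stop peak of day 4 against log phase was the comparison over all members that passed its test. It stayed higher at day 4 under all alternatives tried, with 0.556 for 1 read per position and 2.80 for reads 16 to 14 nt before the stop codon alone, and its exact permutation p moved to 0.429 for the median over the 255 covered genes (0.409). With 1 library left out the difference was 1.71 to 2.12 (p 0.0286 to 0.0571).

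The post-stop share of day 4 against log phase was 0 as a median over genes (also 0 for the strains), and it passed the test for the 30 nt next to the stop codon (0.222) and for the 255 covered genes (0.0947). The coding-end difference between the phases turned positive with 1 read counted per position (0.480), as a median over genes (1.19), with windows of 30 nt (1.40), without RPL41A and RPL41B (0.566) and for the 255 covered genes (1.02). For the strains it turned positive as a median over genes (0.00341) and for the 255 covered genes (0.112), and the strain difference of the stop peak turned negative with 1 read per position (-0.0254) and as a median over covered genes (-0.0180). With 1 library left out, the post-stop difference was 0.147 to 0.639 between phases and -0.621 to 0.118 between strains, the coding-end difference -1.47 to -0.661 and -1.21 to 0.00109, and the strain difference of the stop peak -0.169 to 0.424.

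Counts of calls were small and depended on the setting. For coding-end shares of Chr12 against euploid at day 4 (2 in the main analysis), 0 rows were called by DESeq2, with at least 50 window reads, with 1 read per position or with the second tables of replicate 1, and 1 with the P site in place of the 5' end. For the phases in the euploid (1), 4 were called with the P site and 9 with the second tables. For the phases in Chr12 (10), 4 were called by DESeq2, 2 with at least 50 window reads, 0 with 1 read per position and 23 with the second tables. Post-stop calls between phases (0) were 14 in the euploid and 5 in Chr12 with the second tables and 1 in Chr12 with DESeq2. Stop peak calls were 1 in each strain with 1 read per position and 2 in Chr12 with DESeq2. With 1 library left out, coding-end calls ranged from 0 to 5 for the strains at day 4, 1 to 7 for the phases in the euploid, 4 to 11 for the phases in Chr12 and 0 to 1 for the difference of the strain contrasts, and calls among termination and recycling genes from 2 to 7 in the euploid and 1 to 9 in Chr12. The sign of CDC26 reversed with the P site (3.38). The causes were not tested.

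The labels give the same replicate numbers to every group but no shared batch, and with 2 pairs per comparison the numbers were not taken as pairs. Differences between replicates 1 and 2 went together across groups (correlation over genes 0.111 to 0.638 for post-stop, 0.123 to 0.455 for coding-end and 0.196 to 0.565 for stop peak shares). With the replicate number as a block, post-stop calls between phases were 1 in the euploid and 2 in Chr12, coding-end calls 17 and 44, stop peak calls in Chr12 6, and coding-end calls between strains at day 4 numbered 4. Alternatives that leave out named genes, use the covered genes or test stop peak shares were chosen after seeing the data. Depth limits the post-stop window most, where 526 of 5299 members had enough reads to be tested.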
